A study of Mus musculus with 18 samples.

Results

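The genes described here carry the signal of noradrenaline from the cell surface to cyclic AMP in brown adipocytes. They are the beta-adrenergic receptor genes Adrb1 and Adrb3, Gnas, which encodes the stimulatory G protein alpha subunit, and the adenylyl cyclase genes Adcy3, Adcy4, Adcy5, Adcy6, Adcy7 and Adcy9. They were chosen by gene symbol, 9 of the 20295 genes in the count table, and 9 of 9 passed the filter on low counts that left 12156 genes to be tested. All samples came from 1 immortalised mouse line of brown preadipocytes (BAT-LgT, wild-type, carrying the SV40 large T antigen) differentiated in culture to day 7 and therefore speak for 1 cell line. The 6 groups of 3 samples were cells given Vehicle (DMSO), 100 nM of the pan-beta agonist isoproterenol (ISO), or 10 µM of SR-3420 for 3 h, each without or after 1 h with inhibitors of the lipases ATGL and HSL (Lipase Inh.). SR-3420 is a ligand of ABHD5, the protein that activates ATGL, and starts lipolysis without the receptor. The dose of SR-3420 is the one in the sample labels, and the text of the study names a higher one. The comparisons ask how receptor stimulation, lipolysis alone, and receptor stimulation with lipolysis blocked each alter the transcripts of the receptor's own pathway.

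In brown fat, noradrenaline released by sympathetic nerves binds beta-adrenergic receptors, which turn on the stimulatory G protein, which in turn activates adenylyl cyclase. The cyclic AMP that the cyclase makes activates protein kinase A, which phosphorylates lipolytic proteins and the transcription factor CREB, and the pathway drives heat production through Ucp1. Stimulated cells are known to become less responsive with time, through receptor kinases and arrestins that act on the receptor protein and through lower receptor transcript levels.

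Promoter sequence of 3 members is shown. Adcy3 had the largest rise among the members, and Adcy9 fell under ISO. Adrb1 was the member receptor called higher, under SR-3420 and under ISO with the inhibitors, but not under ISO alone. The windows run from 250 bases before to 50 bases after a transcript start, on the gene's strand, from RefSeq on GRCm38.p6. The motif searched on both strands was the cyclic AMP response element TGACGTCA and, separately, its core TGACG, which also lies within the full element. Capitals mark the core on either strand.
Adcy3, chr12:4133147-4133446, plus strand: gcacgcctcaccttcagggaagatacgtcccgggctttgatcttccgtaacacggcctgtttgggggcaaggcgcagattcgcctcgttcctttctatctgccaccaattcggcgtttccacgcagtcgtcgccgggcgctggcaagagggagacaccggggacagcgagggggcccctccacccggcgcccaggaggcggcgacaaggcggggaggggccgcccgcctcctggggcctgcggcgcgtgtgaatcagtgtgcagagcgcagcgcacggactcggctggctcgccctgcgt
Adrb1, chr19:56721867-56722166, plus strand: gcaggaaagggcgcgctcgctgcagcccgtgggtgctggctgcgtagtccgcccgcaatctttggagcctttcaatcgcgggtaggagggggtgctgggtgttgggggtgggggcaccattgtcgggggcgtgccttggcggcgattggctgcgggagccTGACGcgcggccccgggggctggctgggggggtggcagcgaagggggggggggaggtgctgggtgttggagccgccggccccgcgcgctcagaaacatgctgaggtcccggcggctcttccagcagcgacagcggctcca
Adcy9, chr16:4420449-4420748, minus strand: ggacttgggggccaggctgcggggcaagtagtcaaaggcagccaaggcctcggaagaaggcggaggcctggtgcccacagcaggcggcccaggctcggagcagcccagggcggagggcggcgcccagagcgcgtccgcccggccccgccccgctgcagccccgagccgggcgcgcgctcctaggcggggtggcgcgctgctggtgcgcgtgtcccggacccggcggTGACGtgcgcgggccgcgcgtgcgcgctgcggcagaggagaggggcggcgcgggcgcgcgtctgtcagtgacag
The core began 90 bases before the start of Adrb1 and 24 bases before the start of Adcy9. The window of Adcy3 shown held neither motif, nor did its other window (chr12:4133903-4134202). Of the 9 members, 7 had windows in the promoter set used, 13 windows in all. Adrb3 and Adcy6 had none, so their promoters were not searched. The full element was in 0 of the 13 against 1.79% of all 32851 windows. The core was in 6 of the 13, belonging to 4 members (Adrb1, Adcy7, Adcy9 and Gnas), against 20.8% of all windows. Of these 6, 3 belonged to Gnas, where a pair of overlapping windows held the same site, so the 6 windows held 5 distinct sites. Adcy7, called in no comparison below, held the core, and the window of Adcy5, which ISO lowered with the inhibitors, did not. A match is a description of letters, and its absence says nothing of binding elsewhere.

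In 17 libraries, 10310447 to 21205032 reads were assigned to genes. Lipase Inh. + SR-3420 replicate 2 stood apart, with 4263755 reads, 18.3% of them on Lars2 against 0.0397% to 0.121% in the other libraries, so the log2 differences of this group and the means that combine genes are also given without it. Brown adipocyte markers (9 of 9 tested) summed to between 6299 and 9922 counts scaled to library size (CPM, per 1000000 reads) in every library, highest in ISO (8471 to 9922) and lowest in Lipase Inh. + Vehicle (6299 to 7058). Most of this sum was Adipoq and Fabp4 (means of 3593 and 2603 CPM in Vehicle), followed by Plin1 and Pparg. Other markers of the list were far lower in Vehicle. Cox7a1 averaged 1.07 CPM, Elovl3 4.34 CPM and Prdm16 29.5 CPM, and Cidea lay between Prdm16 and Pparg. The sum therefore does not show the level of these lower markers. By the test given below, SR-3420 lowered Adipoq and Pparg and raised Fabp4, Plin1, Ucp1 and Elovl3. Ucp1 averaged 2.69 CPM in Vehicle and 364 CPM in ISO, so the sum includes genes that the agents changed. Fibroblast markers (5 of 5 tested) summed to 82.8 to 135 CPM, highest in SR-3420 (132 to 135), and muscle markers (2 of 4 tested) to 0.867 to 2.55 CPM. Immune markers (1 of 5 tested) summed to 1.96 to 5.88 CPM with Ptprc, which defines leukocytes, at 0 in every library, and endothelial markers (0 of 4 tested) to 0 to 0.631 CPM. Most of the immune sum was Cd68, the marker tested, at means of 2.88 CPM in Vehicle and 4.68 in ISO. By the same test, ISO raised Cd68, Pdgfra, Thy1 and Myod1, and SR-3420 raised Dlk1 and Col1a1. Neither agent lowered a marker of these lists. The part of these differences in the results was not tested. Values below are CPM after scaling libraries by the trimmed mean of M values (TMM), given for replicates 1, 2 and 3 or as mean ± SD with n = 3. In these bulk samples, fewer cells of a type and less RNA per cell cannot be told apart.

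Across the members, ISO and SR-3420 each shifted Adcy3 upward and Adrb3 downward. With the lipases blocked, ISO still shifted both genes the same way, and its effect on Adrb3 was larger. For Adrb1, Adcy5 and Adcy6 the ISO effect passed the test below only with the inhibitors, as did its difference from the effect without them. A gene was called at an adjusted p of at most 0.05 by edgeR's quasi-likelihood test with Benjamini-Hochberg adjustment over all genes tested. Under ISO against Vehicle, 1 of 9 members was called higher and 2 lower, where 26.8% of all genes were higher and 25% lower. Under SR-3420 against Vehicle, 4 members were higher and 1 lower, where 26% of all genes were higher and 25.4% lower. With the inhibitors present, ISO gave 4 higher and 3 lower members, against 29.4% and 28.3% of all genes. About every other gene tested passed in these 3 comparisons, so the sizes below, and not the counts, carry the description. The split of all genes depended on the scaling. With libraries scaled by total counts alone, 12.3% of genes were higher and 49.4% lower under ISO (members 1 and 3), 16% and 35.9% under SR-3420 (members 2 and 3), and 16.2% and 42.1% under Lipase Inh. + ISO (members 3 and 3). At the 2-fold threshold used in the study, 1 member was higher and 1 lower under ISO, against 5.03% and 4.07% of all genes. Under SR-3420 it was again 1 and 1, against 3.97% and 2.37%. Under Lipase Inh. + ISO 3 members were higher and 2 lower, against 5.43% and 7.63%.

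The inhibitors alone called 0 of 9 members, where 0.485% of all genes were higher and 0.428% lower, and 1 member, Adcy5, had an unadjusted p below 0.05. SR-3420 on top of the inhibitors also called 0 of 9 members, where 2.99% of all genes were higher and 1.36% lower, and 3 members had an unadjusted p below 0.05. Without Lipase Inh. + SR-3420 replicate 2 the count of members was again 0, and 2.1% of all genes were higher and 0.874% lower. The effect of ISO differed between cells with and without inhibitors for 4 members, more positive with them for 2 and more negative for 2, where 14.9% and 16.6% of all genes did so. The effect of SR-3420 differed for 2 members, 1 in each direction, where 12.5% and 14.8% of all genes did so. ISO against SR-3420 directly gave 2 members higher and 2 lower in ISO, against 15.8% and 13.9% of all genes. With total counts the shares of all genes were 0.239% and 0.329% for the inhibitors alone, 0.938% and 1.89% for SR-3420 on top of them, 17% and 12% for the ISO interaction, 12.9% and 10.2% for the SR-3420 interaction, and 6.38% and 25% for ISO against SR-3420.

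**Figure D1:**
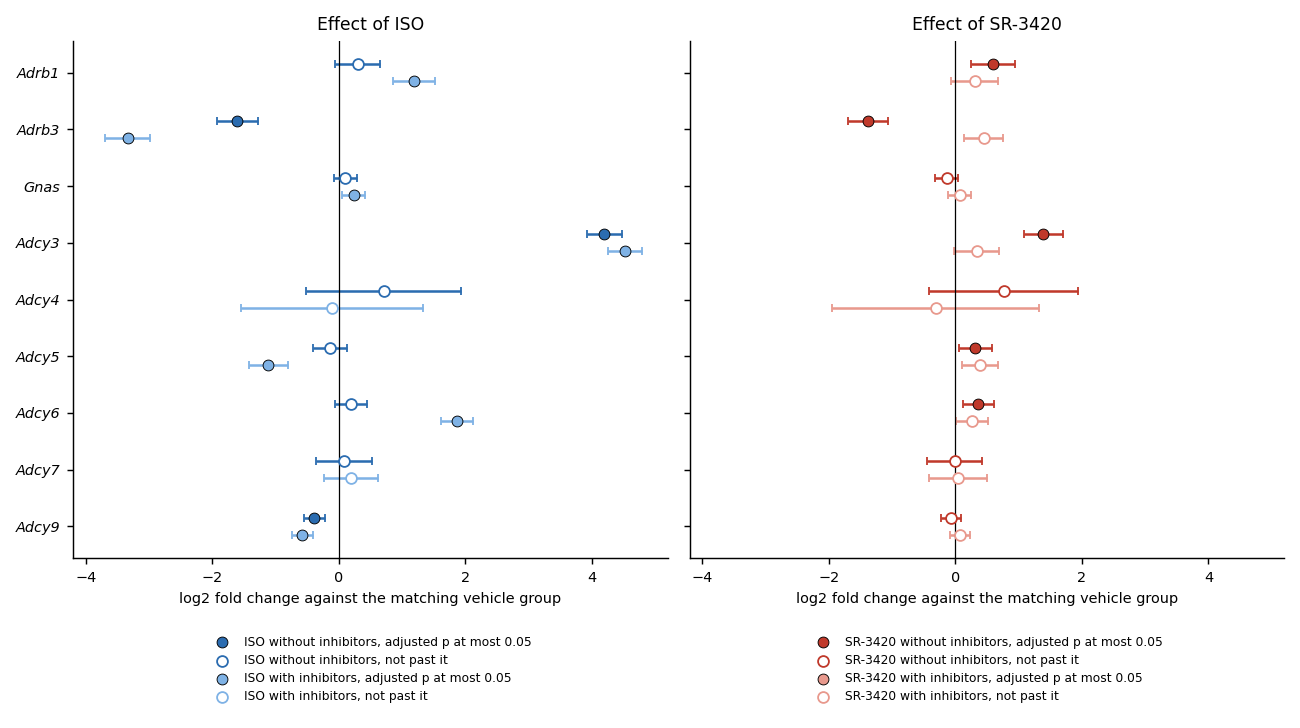
Log2 fold change of each of the 9 members, with its 95% confidence interval, in the treatment comparisons; filled symbols have an adjusted p of at most 0.05. Adcy3 lies farthest to the right under ISO without and with inhibitors (4.20 and 4.52), Adrb3 farthest to the left (-1.60 and -3.33), and Adcy6 departs from 0 under ISO mainly where the inhibitors were present (1.87 against 0.19).

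**Figure D2:**
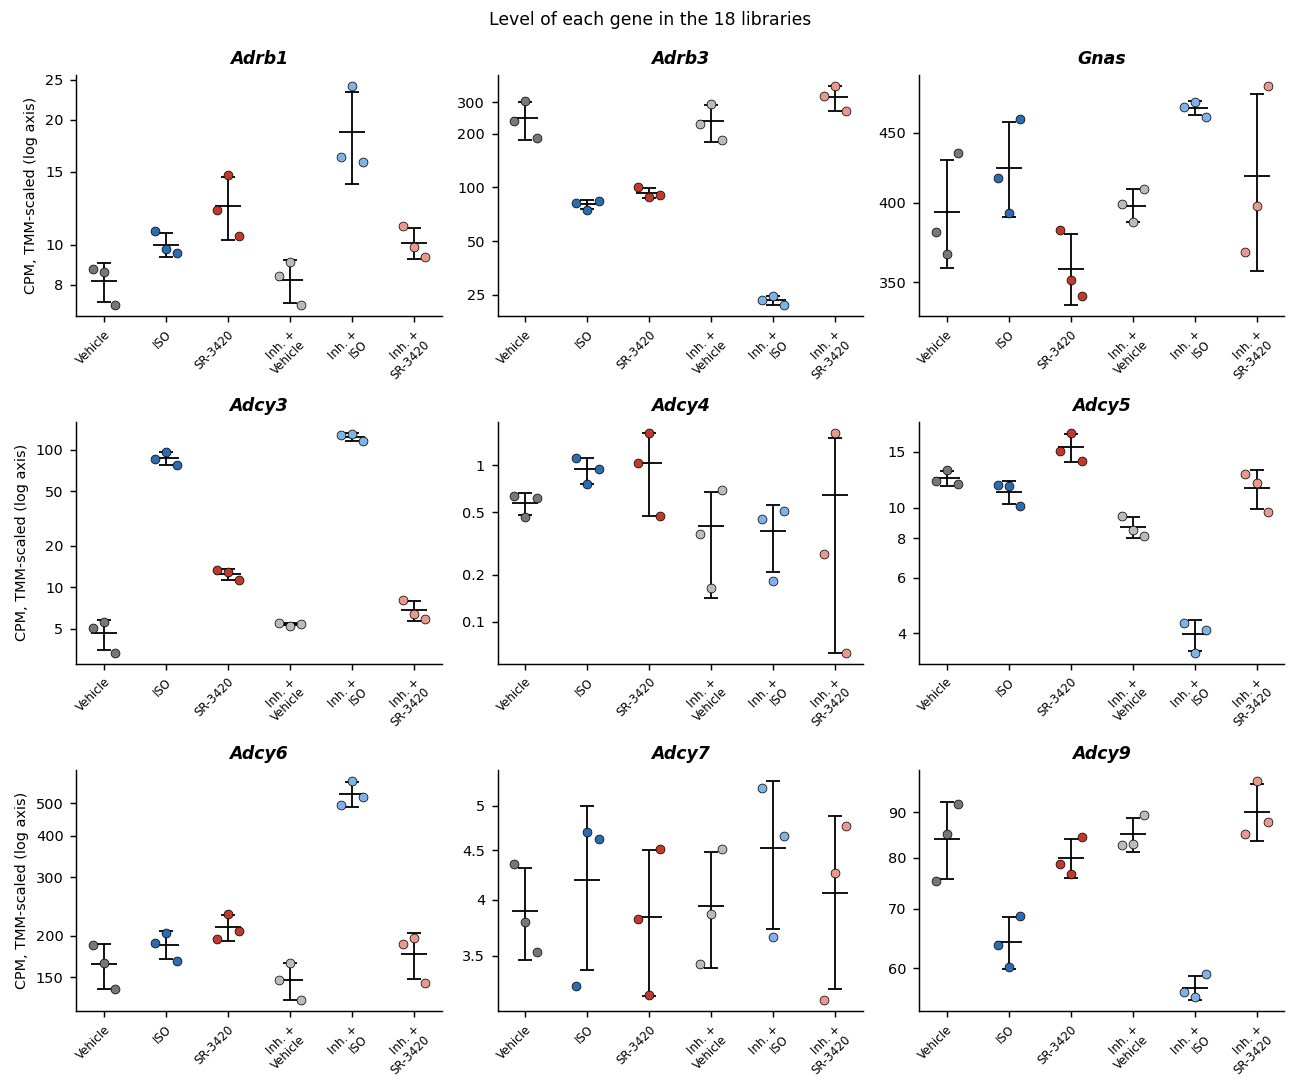
Level of each member in CPM (log axis, a separate range for each gene) in the 6 groups; points are samples, bars the mean of 3, whiskers the SD, and the lower whisker of Adcy4 stops at the lowest sample where the SD exceeds the mean. Adrb3 is lowest and Adcy3 and Adcy6 are highest in the Lipase Inh. + ISO samples.

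Adrb3 (chr8:28336248-28340060 on mm9, minus strand, the row spanning the whole gene) encodes the beta-3 receptor, the main noradrenaline receptor of rodent brown adipocytes. It stood at 235, 305 and 189 CPM in Vehicle, at 82.1, 74.7 and 83.9 CPM in ISO, and at 99.9, 88.7 and 90.8 CPM in SR-3420. Every stimulated sample lay below every Vehicle sample, and each SR-3420 sample lay above each ISO sample by a small margin. Adrb3 fell by 1.60 on the log2 scale under ISO (SE 0.15, adjusted p = 1.68e-08), a mean 3.03-fold lower. Under SR-3420, which acts downstream of the receptor, it fell by 1.39 (SE 0.15, adjusted p = 1.55e-07), 2.61-fold lower. The difference between ISO and SR-3420 was -0.22 (95% interval -0.54 to 0.11, adjusted p = 0.317) and was not past the threshold, though it was when only the compared groups were fitted (adjusted p = 0.0399).

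With the inhibitors, Adrb3 stood at 227, 293 and 183 CPM in Lipase Inh. + Vehicle, 23.5, 24.5 and 21.9 CPM in Lipase Inh. + ISO, and 324, 370 and 267 CPM in Lipase Inh. + SR-3420. The 3 Lipase Inh. + ISO samples were the lowest of all 18. As groups, the Lipase Inh. + SR-3420 samples overlapped those of Vehicle and of Lipase Inh. + Vehicle. Within each replicate number, however, the Lipase Inh. + SR-3420 sample lay above both, though the numbers were not taken as pairs. Against Lipase Inh. + Vehicle, ISO lowered Adrb3 by 10.1-fold (log2 fold change -3.33, SE 0.17, adjusted p = 4.46e-13). The ISO effect was lower by a further -1.73 on the log2 scale than without inhibitors (SE 0.23, adjusted p = 3.84e-06 for the interaction). The mean of Lipase Inh. + ISO was 3.44-fold lower than that of ISO alone, while the inhibitors alone gave -0.06 (95% interval -0.36 to 0.25, adjusted p = 0.921).

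The SR-3420 effect on Adrb3 went the other way with the inhibitors. It was 0.44 on the log2 scale against Lipase Inh. + Vehicle (95% interval 0.14 to 0.75, adjusted p = 0.105) and was not called. It was 0.34 without Lipase Inh. + SR-3420 replicate 2 (adjusted p = 0.334). The effect was called without the filter on low counts (0.43, adjusted p = 0.0121) and without Lipase Inh. + Vehicle replicate 2 (0.64, adjusted p = 0.0182). It was also called with replicate number added to the model (0.46, adjusted p = 0.00658). The interaction of SR-3420 with the inhibitors was 1.83 (SE 0.21, adjusted p = 1.84e-06), and 1.72 without Lipase Inh. + SR-3420 replicate 2 (adjusted p = 7.71e-06). In mean level, Lipase Inh. + SR-3420 was 3.44-fold higher than SR-3420 alone. Blocking the lipases was thus followed by a lower Adrb3 level in ISO-treated cells and a higher one in SR-3420-treated cells.

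Adrb1 (chr19:56796862-56799352 on mm9, plus strand) encodes the beta-1 receptor, which the same agonist binds. It was measured at low depth, 37 to 311 reads per library. Its level was 8.72, 8.58 and 7.15 CPM in Vehicle, 10.8, 9.74 and 9.56 CPM in ISO, and 12.1, 14.7 and 10.5 CPM in SR-3420. The ISO samples lay just above those of Vehicle, but the log2 fold change of 0.30 did not pass the test (95% interval -0.06 to 0.66, adjusted p = 0.154). Under SR-3420 Adrb1 rose by 0.59 (SE 0.17, adjusted p = 0.00514), 1.53-fold.

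With the inhibitors, Adrb1 stood at 8.38, 9.06 and 7.17 CPM in Vehicle-treated cells, 16.3, 24.2 and 15.8 CPM with ISO, and 11.1, 9.86 and 9.35 CPM with SR-3420. The Lipase Inh. + ISO samples were the highest of all 18. Adrb1 rose 2.28-fold there (log2 fold change 1.19, SE 0.16, adjusted p = 1.9e-06), by 0.89 more than without inhibitors (SE 0.24, adjusted p = 0.00639). Lipase Inh. + SR-3420 gave 0.31 (adjusted p = 0.436), and 0.32 without its replicate 2 (adjusted p = 0.486). The SR-3420 effect was not shown to differ with the inhibitors (-0.29, adjusted p = 0.413, and -0.28 without that replicate, adjusted p = 0.467). Adrb1 and Adrb3 therefore moved in opposite directions under SR-3420 alone and under ISO with the inhibitors.

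Divided by the counted length of each gene, the level of Adrb3 over that of Adrb1 was 24, 31.7 and 23.6 in Vehicle (26.5 ± 4.58). The ratio was 7.14 ± 0.594 in ISO, 6.81 ± 1.26 in SR-3420, 25.2 ± 3.15 in Lipase Inh. + Vehicle and 28.3 ± 4.45 in Lipase Inh. + SR-3420 (25.8 without its replicate 2). In Lipase Inh. + ISO it was 1.29, 0.905 and 1.24 (1.14 ± 0.207), so the transcripts were present at near-equal level per length only in that group.

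**Figure D3:**
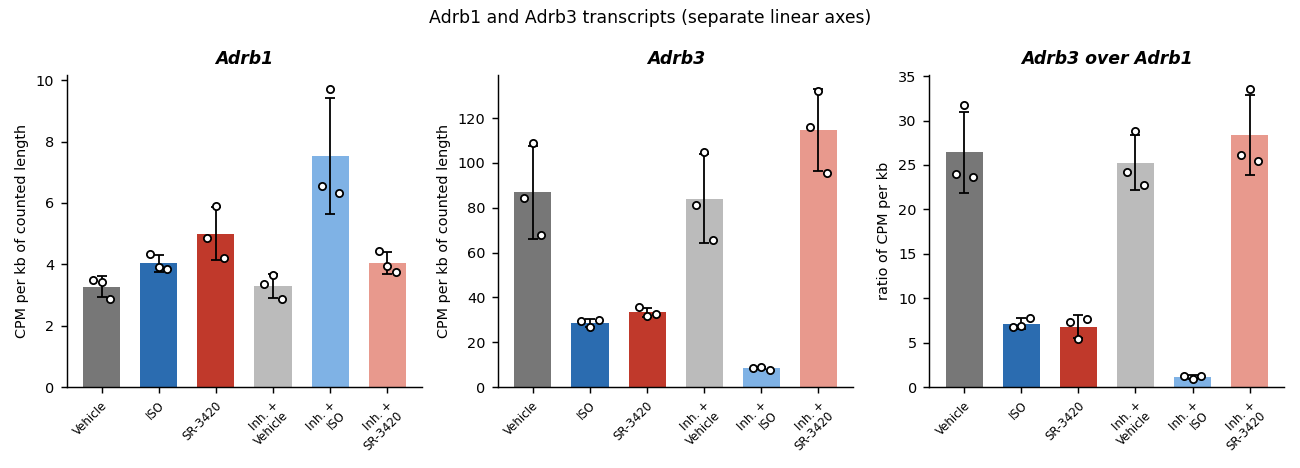
Level of Adrb1 and of Adrb3 in CPM per kilobase of counted length, and the ratio of Adrb3 to Adrb1 (linear axes from 0, a separate range for each panel), in the 6 groups; bars are means of 3, whiskers SDs and points samples. In Lipase Inh. + ISO the means are 7.52 CPM per kilobase for Adrb1 and 8.34 for Adrb3, against 3.27 and 87.1 in Vehicle.

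Gnas (chr2:174109821-174172243 on mm9, plus strand) encodes the alpha subunit that passes the receptor's signal to the cyclases, from a locus with several overlapping transcripts that gene-level counts do not separate. It had the highest level per length of the members, 168 CPM per kilobase in Vehicle. Its samples read 381, 367 and 435 CPM in Vehicle, 417, 393 and 460 CPM in ISO, and 382, 351 and 342 CPM in SR-3420. These ranges overlapped, and neither agent passed the test against Vehicle (0.10, adjusted p = 0.333 for ISO and -0.14, adjusted p = 0.195 for SR-3420). With the inhibitors it read 399, 387 and 409 CPM in Vehicle-treated cells, 470, 474 and 462 CPM with ISO, and 368, 398 and 487 CPM with SR-3420. The Lipase Inh. + ISO samples lay above those of Lipase Inh. + Vehicle by a narrow margin, and the highest sample of all was in Lipase Inh. + SR-3420. The call under Lipase Inh. + ISO, 1.18-fold higher (log2 difference 0.23, SE 0.09, adjusted p = 0.0248), was lost with scaling by total counts (0.01, adjusted p = 0.946) and on leaving out any of 4 libraries. Those 4 were Lipase Inh. + Vehicle replicate 1 (adjusted p = 0.0531) or 2 (0.066) and Lipase Inh. + ISO replicate 1 (0.0524) or 2 (0.0572). The difference between ISO and SR-3420, 0.24 (adjusted p = 0.0405), was likewise lost with total counts (0.09, adjusted p = 0.52) and without ISO replicate 1 or 3 or SR-3420 replicate 2 or 3.

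Among the cyclases, Adcy3 (chr12:4133397-4213524 on mm9, plus strand) had the largest change of all members. It stood at 5.06, 5.56 and 3.35 CPM in Vehicle, 86.0, 95.6 and 77.7 CPM in ISO, and 13.3, 12.9 and 11.2 CPM in SR-3420. The 3 groups did not overlap. Adcy3 rose by 4.20 on the log2 scale under ISO (SE 0.13, adjusted p = 2.72e-16), 18.6-fold, and by 1.39 under SR-3420 (SE 0.15, adjusted p = 1.17e-07), 2.67-fold. The ISO mean was 6.94-fold higher than that of SR-3420 (log2 difference 2.80, SE 0.12, adjusted p = 1.03e-13).

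With the inhibitors, Adcy3 stood at 5.47, 5.27 and 5.43 CPM in Vehicle-treated cells, 128, 129 and 115 CPM with ISO, and 8.11, 6.4 and 5.92 CPM with SR-3420. The ISO effect was again above every other group, 23.0-fold (log2 fold change 4.52, SE 0.13, adjusted p = 3.56e-17). It was not shown to differ from the effect without inhibitors (0.32, 95% interval -0.09 to 0.73, adjusted p = 0.225), although without Vehicle replicate 3 the difference passed (0.50, adjusted p = 0.0469). The SR-3420 effect was smaller with the inhibitors, 0.34 (adjusted p = 0.348), and the interaction was -1.06 (SE 0.23, adjusted p = 0.00143). Without Lipase Inh. + SR-3420 replicate 2 these were 0.35 (adjusted p = 0.383) and -1.04 (adjusted p = 0.00296). Adcy3 shares 1853 bases with the neighbouring Cenpo on the minus strand, and strand use in the counting was not stated. Cenpo, at 10.2 CPM in Vehicle, rose by 0.36 under ISO (adjusted p = 0.0168).

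Adcy6 (chr15:98420421-98438064 on mm9, minus strand) encodes a cyclase that calcium inhibits, and was the most abundant cyclase per length in every group. It read 188, 166 and 138 CPM in Vehicle, 190, 204 and 168 CPM in ISO, and 195, 232 and 207 CPM in SR-3420. The ISO samples overlapped with those of Vehicle, and the log2 fold change of 0.19 was not called (95% interval -0.06 to 0.44, adjusted p = 0.191). SR-3420 gave 1.29-fold (0.36, SE 0.12, adjusted p = 0.0152), a call lost with total counts (0.20, adjusted p = 0.153), without SR-3420 replicate 2 (adjusted p = 0.0769) and without Vehicle replicate 3 (adjusted p = 0.0991). ISO against SR-3420 gave -0.17 (adjusted p = 0.301), which was called with total counts (-0.32, adjusted p = 0.041). With the inhibitors Adcy6 read 147, 165 and 128 CPM in Vehicle-treated cells, 495, 586 and 524 CPM with ISO, and 189, 197 and 144 CPM with SR-3420. The Lipase Inh. + ISO samples stood apart from all 15 others. Among those, the SR-3420 samples also lay above all of Vehicle and of Lipase Inh. + Vehicle. ISO raised Adcy6 3.65-fold there (log2 fold change 1.87, SE 0.12, adjusted p = 2.54e-11), and the interaction was 1.68 (SE 0.17, adjusted p = 1.24e-07).

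Adcy5 (chr16:35155722-35304635 on mm9, plus strand) is the closest relative of Adcy6. Its samples read 12.1, 13.1 and 11.9 CPM in Vehicle, 11.8, 11.7 and 10.1 CPM in ISO, and 15.1, 17.2 and 14 CPM in SR-3420. The SR-3420 samples were the highest, 1.25-fold above Vehicle (log2 difference 0.32, SE 0.12, adjusted p = 0.0372), but this call was lost with total counts (0.16, adjusted p = 0.339), in DESeq2 (adjusted p = 0.0595), without the filter on low counts (adjusted p = 0.0688), with only the compared groups (adjusted p = 0.0547) and without SR-3420 replicate 1 or 2 or Vehicle replicate 1 or 3. ISO gave -0.14 (adjusted p = 0.381), which became a fall with total counts (-0.45, adjusted p = 0.00745).

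With the inhibitors, Adcy5 read 9.41, 8.49 and 8.15 CPM in Vehicle-treated cells, 4.32, 3.48 and 4.11 CPM with ISO, and 12.8, 12 and 9.67 CPM with SR-3420. The Lipase Inh. + ISO samples were the lowest of all 18, and those of Lipase Inh. + Vehicle lay below all of Vehicle. Adcy5 fell 2.19-fold under Lipase Inh. + ISO (log2 fold change -1.12, SE 0.15, adjusted p = 1.32e-06), and the interaction was -0.98 (SE 0.20, adjusted p = 0.000588). Adcy5 and Adcy6 thus moved in opposite directions under ISO with the inhibitors. The inhibitors alone gave -0.51 for Adcy5 (SE 0.13, unadjusted p = 0.000728, adjusted p = 0.067), and SR-3420 with them gave 0.38 (adjusted p = 0.137), or 0.36 without Lipase Inh. + SR-3420 replicate 2 (adjusted p = 0.247).

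Adcy9 (chr16:4284886-4420498 on mm9, minus strand), a cyclase known for its low response to forskolin, read 75.3, 85.2 and 91.9 CPM in Vehicle, 63.7, 60.2 and 68.7 CPM in ISO, and 78.6, 76.6 and 84.4 CPM in SR-3420. With the inhibitors it read 82.8, 83.0 and 89.3 CPM in Vehicle-treated cells, 56.4, 55.7 and 59.1 CPM with ISO, and 85.0, 97.8 and 87.8 CPM with SR-3420. Both groups given ISO lay below the other 4. Among those 4, the Lipase Inh. + SR-3420 samples lay just above those of SR-3420, and the other pairs overlapped. Adcy9 fell 1.31-fold under ISO (log2 fold change -0.39, SE 0.08, adjusted p = 0.000288) and 1.49-fold under Lipase Inh. + ISO (-0.58, SE 0.08, adjusted p = 2.03e-06), and these effects were not shown to differ (-0.19, adjusted p = 0.218). SR-3420 gave -0.07 (adjusted p = 0.462), and ISO against SR-3420 gave -0.32 (SE 0.08, adjusted p = 0.00424).

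Adcy7 (chr8:90796302-90853861 on mm9, plus strand) was called in 0 of the 8 comparisons, with 0 at an unadjusted p below 0.05, and its samples lay between 3.15 and 5.22 CPM with every group overlapping the next. Adcy4 (chr14:56387929-56402856 on mm9, minus strand) had 1 to 20 reads per library and group means between 0.38 and 1.03 CPM. At this depth its log2 fold change under ISO, 0.71, had an interval from -0.51 to 1.94 (adjusted p = 0.324), so no difference was detectable. Both genes encode cyclases of the group that G protein beta-gamma subunits stimulate.

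Summed over the 6 cyclase genes per length, the level was 42.5 ± 3.54 CPM per kilobase in Vehicle, 66 ± 5.03 in ISO and 52.7 ± 3.22 in SR-3420. With the inhibitors it was 39.2 ± 2.58 CPM per kilobase in Vehicle-treated cells, 131 ± 8.17 with ISO and 45.8 ± 5.68 with SR-3420 (43.5 without replicate 2 of the last group). The Lipase Inh. + ISO samples, at 126, 141 and 128 CPM per kilobase, were the highest, in the same group in which Adrb3 was lowest. Adcy3 made up 2.95% ± 0.568 of the cyclase sum in Vehicle, 35.5% ± 1.0 in ISO and 25.7% ± 1.69 in Lipase Inh. + ISO. Adcy6 made up 63.9% in Vehicle, 47.2% in ISO and 67.5% in Lipase Inh. + ISO, while Adcy9 went from 25.5% to 12.5% and 5.55%. Without division by length the share of Adcy3 was 1.71% in Vehicle, 24.3% in ISO and 17.1% in Lipase Inh. + ISO.

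**Figure D4:**
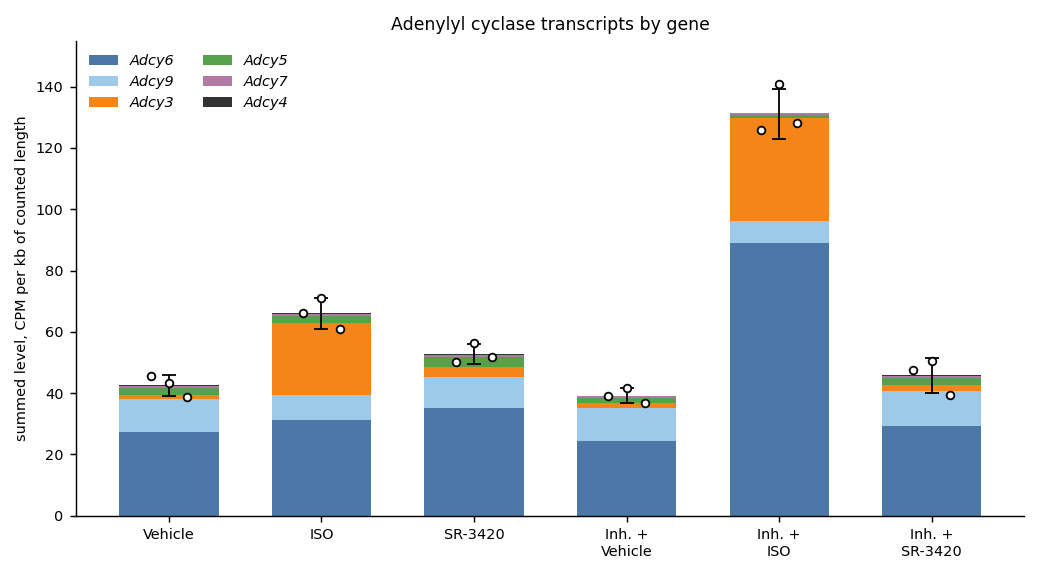
Summed level of the 6 adenylyl cyclase genes in CPM per kilobase, stacked by gene, in the 6 groups; the whisker is the SD of the sum and points are its value in each of 3 samples. The sum reaches 131 in Lipase Inh. + ISO against 42.5 in Vehicle, and the Adcy3 band is widest as a share in ISO, at 35.5%.

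The pathway around the members was read from lists of the other genes that act on the same signal. Among other adrenergic receptors (2 of the 6 genes listed were tested), ISO raised 0 and lowered 1, Adra1d, whose mean was 39.7 CPM in Vehicle and 23.6 CPM in ISO (-0.75 on the log2 scale, adjusted p = 0.000131). SR-3420 called 0 of the 2, and Lipase Inh. + ISO lowered 1, again Adra1d (-0.74, adjusted p = 0.000124). The only other adenylyl cyclase tested, of 4 listed, was Adcy10, the soluble enzyme, and it was called in 0 comparisons. The median log2 fold change under ISO was -0.28 for the 2 adrenergic receptor genes tested, 0.10 for the members and -0.02 for all genes.

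Among 11 other Gs-coupled receptors tested of 18, ISO raised 2 and lowered 5, with a median of -0.21, where 26.8% of all genes were higher and 25% lower. The constitutively active receptor Gpr3 had 3, 0 and 0 reads in Vehicle, 62, 59 and 48 in ISO, and 16, 11 and 24 in SR-3420. With the inhibitors it had 4, 4 and 1 reads in Vehicle-treated cells, 6, 4 and 7 with ISO, and 2, 0 and 1 with SR-3420. Gpr3 thus had more than 7 reads only where ISO or SR-3420 was given without inhibitors. It passed the filter on low counts only through those groups, so its p-values do not stand apart from that selection. The adjusted p was 3.52e-09 for ISO against Vehicle and 0.000588 for the ISO interaction. For the SR-3420 interaction it was 0.00336, or 0.00603 without Lipase Inh. + SR-3420 replicate 2. Mc5r, a melanocortin receptor, fell from 14.4 to 6.03 CPM under ISO (-1.23, adjusted p = 4.71e-07). The receptor for adrenocorticotropic hormone, Mc2r, averaged 98.9 CPM in Lipase Inh. + Vehicle and 41.1 CPM in Lipase Inh. + ISO, a larger difference than without inhibitors (interaction -0.97, adjusted p = 2.34e-05). Adora2b, an adenosine receptor, rose from 1.03 to 2.18 CPM under ISO (1.08, adjusted p = 0.0177), a call lost with total counts (0.78, adjusted p = 0.073), without Vehicle replicate 1 (0.0767) or 2 (0.0809) and without ISO replicate 3 (0.0889).

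Of 21 genes tested of 23 in the list of other G protein subunits, which also holds their chaperones Ric8 and Ric8b, ISO raised 8 and lowered 4, with a median of 0.00 (26.8% and 25% of all genes). The alpha subunit gene Gnao1 rose from 3.77 to 6.03 CPM (0.72, adjusted p = 0.007). That call was lost with total counts (0.41, adjusted p = 0.0999) and without ISO replicate 1 (0.45, adjusted p = 0.102). Gnb5, a beta subunit that pairs with RGS proteins, rose from 50.4 to 82.0 CPM (0.70, adjusted p = 2.43e-06). Gnal, which encodes the alpha subunit most like the product of Gnas, fell from 7.25 to 4.91 CPM (-0.54, adjusted p = 0.0227), a call lost without Vehicle replicate 2 (adjusted p = 0.156), ISO replicate 2 (0.0781) or ISO replicate 3 (0.0784). Gna13, which encodes another alpha subunit, averaged 159 CPM in Vehicle and 189 CPM in ISO. With the inhibitors it averaged 183 CPM in Vehicle-treated cells and 307 CPM with ISO, and its ISO effect was larger there (interaction 0.49, adjusted p = 0.000474). Its small rise under ISO alone (0.25, adjusted p = 0.00444) turned to -0.06 with total counts (adjusted p = 0.598).

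Of 8 receptor kinases and arrestins tested of 9, which take active receptors out of use, ISO raised 1 and lowered 3, with a median of -0.14 (26.8% and 25% of all genes). The arrestin-domain gene Arrdc3 rose from 88.8 to 231 CPM (1.38, adjusted p = 2.34e-10), and averaged 209 CPM with ISO and the inhibitors against 83.3 CPM without ISO. The receptor kinase gene Adrbk1 fell from 69 to 55.3 CPM (-0.31, adjusted p = 0.0112, but 0.0898 without Vehicle replicate 3) and Arrb2, a beta-arrestin, from 8.08 to 5.71 CPM (-0.51, adjusted p = 0.00731). Grk5 averaged 10.3 CPM in Lipase Inh. + Vehicle and 5.24 CPM in Lipase Inh. + ISO, with an interaction of -0.83 (adjusted p = 0.00925). Of 7 RGS genes tested of 16, which shorten the active state of G proteins, ISO raised 0 and lowered 2, with a median of -0.27, beside the same shares of all genes. Rgs12 fell from 25.4 to 16.2 CPM under ISO (-0.65, adjusted p = 0.00255). Rgs2 fell from 501 to 179 CPM under ISO (-1.49, adjusted p = 1.34e-09) and to 117 CPM under SR-3420 (-2.10, adjusted p = 1.29e-11). With the inhibitors it was 480 CPM in Vehicle-treated cells, 330 CPM with ISO (-0.54, adjusted p = 0.00054) and 364 CPM with SR-3420, so that its fall was smaller in both (interactions 0.95, adjusted p = 0.000157, and 1.70, adjusted p = 2.58e-07, the latter 1.77 without Lipase Inh. + SR-3420 replicate 2).

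Of 9 genes tested of 11 that encode protein kinase A, its inhibitors or the cyclic AMP-activated exchange factors (EPAC), ISO raised 4 and lowered 0, with a median of 0.04 (26.8% and 25% of all genes). Prkar1a, a regulatory subunit that holds the kinase inactive, rose from 347 to 701 CPM (1.02, adjusted p = 4.08e-12), and from 345 to 929 CPM with the inhibitors (1.43, adjusted p = 1.09e-14). Prkar2b, the regulatory subunit abundant in fat, rose from 569 to 1102 CPM (0.95, adjusted p = 1.27e-08) and averaged 562 CPM in Lipase Inh. + ISO against 536 CPM in Lipase Inh. + Vehicle (interaction -0.88, adjusted p = 1.39e-05). It was also the only gene of these lists called under Lipase Inh. + SR-3420 against Lipase Inh. + Vehicle (0.50, adjusted p = 0.00167), and gave 0.52 without Lipase Inh. + SR-3420 replicate 2 (adjusted p = 0.00484). Pkig, an inhibitor of the kinase, rose from 16.7 to 23.3 CPM under ISO (0.48, adjusted p = 0.000433), a call lost with total counts (0.17, adjusted p = 0.183).

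Of 11 anchoring proteins that place the kinase in the cell, all tested, ISO raised 4 and lowered 1, with a median of 0.13 (26.8% and 25% of all genes). The ISO effect was more positive with the inhibitors for 1 and more negative for 5 (14.9% and 16.6% of all genes). Akap12, a scaffold that binds the kinase, rose from 151 to 313 CPM under ISO (1.05, adjusted p = 3.91e-11) and to 391 CPM under SR-3420, whereas it averaged 171 CPM in Lipase Inh. + Vehicle and 130 CPM in Lipase Inh. + ISO (interaction -1.44, adjusted p = 2.67e-10). Akap13 rose from 96.8 to 257 CPM (1.41, adjusted p = 7.61e-13), with an interaction of -0.93 (adjusted p = 2.95e-07). Akap2 rose from 210 to 408 CPM (0.96, adjusted p = 2.64e-07), with an interaction of -1.06 (adjusted p = 1.98e-05). Akap7 fell from 63.3 to 43.9 CPM under ISO (-0.53, adjusted p = 7.99e-05) and from 61.2 to 15.1 CPM with the inhibitors (-2.02, adjusted p = 4.82e-13), an interaction of -1.49 (adjusted p = 4.52e-08).

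**Figure D5:**
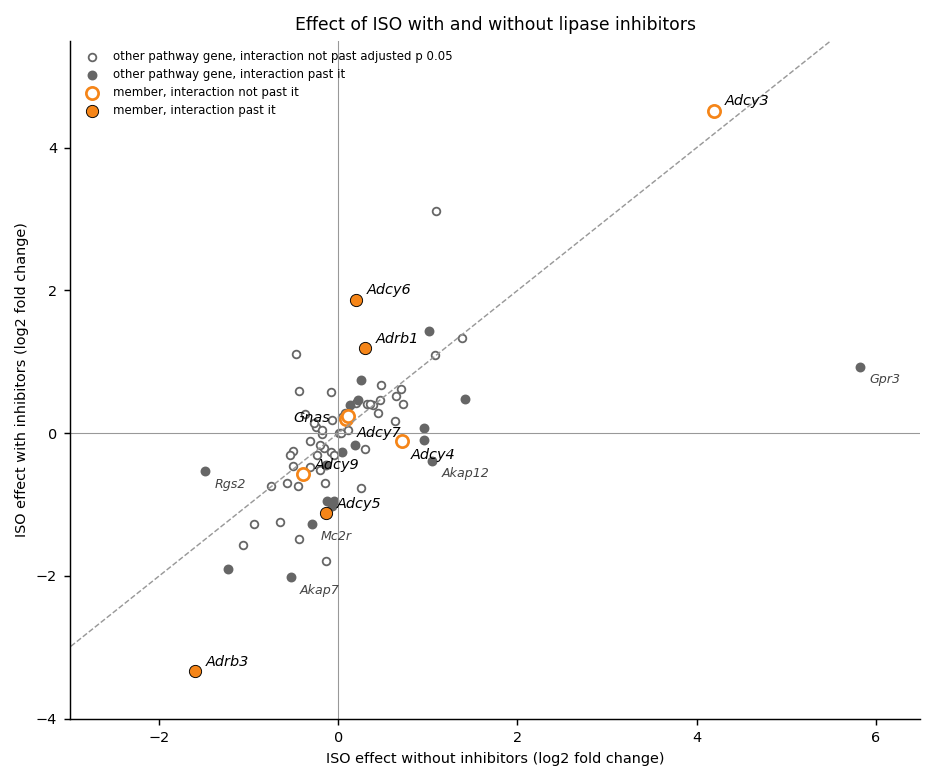
Log2 fold change under ISO without inhibitors (horizontal) against that with inhibitors (vertical) for the members (orange) and the tested genes of the pathway lists (grey), with the dashed line marking equal effects; the 2 axes come from separate control groups, and the position of Gpr3 depends on the prior count. Adcy6, at 0.19 and 1.87, lies above the line, and Adrb3, at -1.60 and -3.33, and Akap7, at -0.53 and -2.02, lie below it.

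The genes most like 3 members in pattern over all 18 samples were taken by Pearson correlation of log2 CPM among 9410 genes, as a description, since the samples share libraries and fall into 6 groups. Adrb3 was closest to Aoc3, Slc44a3 and Pcyox1, each at 0.98. Aoc3, an amine oxidase of the adipocyte surface, averaged 1455 CPM in Vehicle, 899 in ISO, 941 in SR-3420, 1511 in Lipase Inh. + Vehicle, 596 in Lipase Inh. + ISO and 1565 in Lipase Inh. + SR-3420, the same order of groups as Adrb3 apart from the pair without a stimulus. Adcy3 was closest to Slc25a51, the mitochondrial NAD carrier, at 1.00, and to Ucp1 and Mapkapk2, each at 0.99. Slc25a51 averaged 310 CPM in Vehicle, 1386 in ISO, 541 in SR-3420, 319 in Lipase Inh. + Vehicle, 1815 in Lipase Inh. + ISO and 352 in Lipase Inh. + SR-3420, again the group order of the member. Adrb1 was closest to Tbc1d10b and to Adcy6, each at 0.92, and to Aatk, at 0.91. The lowest correlations were with Tor1aip2 for Adrb3 (-0.98), Ctdsp2 for Adcy3 (-0.98) and Klhl2 for Adrb1 (-0.92).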

How the data were processed

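RNA was sequenced from 18 samples, 3 for each of 6 groups. The study's methods give 3 independent experiments for these data and do not say whether each experiment held all 6 groups. The authors mapped reads to mm9 with STAR 2.4.2a, allowed 1 read per position per length with HOMER and deposited gene-level raw counts from iRNA-seq, whose treatment of strand is not given in the sources used here. Rows span whole genes, and the deposited start positions, which count from 0, are printed plus 1.

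The deposited counts were filtered with edgeR 4.0.16 in R 4.3.3 (filterByExpr, minimum count 10, minimum total 15), scaled by TMM and fitted over all 18 samples as group means with no replicate block. Each of 8 contrasts was tested with edgeR's quasi-likelihood test, two-sided, with Benjamini-Hochberg adjustment over 12156 genes and a threshold of 0.05. An interaction is the log2 fold change of an agent in inhibitor-treated cells minus that in cells without inhibitors. On simulated counts for ISO against Vehicle, 200 of 200 genes changed by 3-fold were recovered among 12080 tested, with 10 others called. The changed genes were drawn from those above a minimum level in Vehicle, with no replicate effect. Smaller changes and genes at lower levels were not simulated, so recovery of these is not known.

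Alternatives were total-count scaling, relative log expression (RLE) factors, DESeq2 1.42.0, other filters, only the compared groups, a replicate block and leaving out each sample. Levels were summarised with Python 3.11.15 and pandas 2.3.3, and figures drawn with matplotlib 3.10.9. Vehicle is the control in several contrasts, so these share samples. Members, gene lists and named genes were chosen with earlier results of these data known, and 1 gene of the planned lists is not reported here. Genes named from each list were drawn from the 3 called genes with the largest change under ISO against Vehicle and the 2 called with the largest ISO interaction, and genes named for likeness were the 3 highest and 1 lowest correlations with Adrb1, Adrb3 and Adcy3.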

Additional observations from a re-analysis of the deposited data

Results flagged for a closer look

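Each value here, for a member or a gene named from the pathway lists by the rule given with the methods, is the difference between an agent's log2 fold change with the inhibitors and without them, and each passed edgeR's quasi-likelihood test of that difference (Benjamini-Hochberg adjusted p at most 0.05). Among the members, the ISO effect differed for Adrb1 (0.89), Adrb3 (-1.73), Adcy5 (-0.98) and Adcy6 (1.68), and the SR-3420 effect for Adrb3 (1.83) and Adcy3 (-1.06). Among other receptors, the ISO effect differed for Mc2r (-0.97), Mc5r (-0.68) and Gpr3 (-4.9), and the SR-3420 effect for Mc2r (0.66) and Gpr3 (-4.78). The values of Gpr3 rest on 0 to 3 reads in the Vehicle libraries and depend on the prior count, so they give no size. Among G protein subunits the ISO effect differed for Gna13 (0.49) and Gng2 (-0.95). Among receptor kinases and arrestins it differed for Grk5 (-0.83) and Arrb1 (-0.34), and the SR-3420 effect for Grk5 (-0.85) and Arrdc3 (-0.52). The RGS gene Rgs2 differed for ISO (0.95) and SR-3420 (1.70). In the protein kinase A list the ISO effect differed for Prkar1a (0.41), Prkar2b (-0.88) and Pkia (-0.90), and the SR-3420 effect for Prkar1a (-0.33). In the anchoring proteins the ISO effect differed for Akap2 (-1.06), Akap7 (-1.49), Akap12 (-1.44) and Akap13 (-0.93), and the SR-3420 effect for Akap2 (-0.96), Akap12 (-1.26) and Akap13 (-0.37). Outside that rule and named after their values were seen, the ISO difference also passed for Gnai3 (0.25), Gnaq (-0.30), Akap8 (0.27) and Akap9 (-0.30), and the SR-3420 difference for Sctr (1.11), Adcyap1r1 (0.83), Gna11 (0.42), Gnai3 (-0.34), Gng12 (-0.26), Ric8b (-0.69), Rgs17 (-1.12) and Akap11 (-0.39). For the genes named by the rule, leaving out Lipase Inh. + SR-3420 replicate 2 ended none of these SR-3420 differences. With total counts, the differences of Arrb1 (-0.26, adjusted p = 0.117) and Mc5r (-0.60, adjusted p = 0.0605) for ISO and of Prkar1a (-0.29, adjusted p = 0.0615) for SR-3420 no longer passed. Leaving out 1 sample also ended that of Mc5r without Vehicle replicate 1 (-0.58, adjusted p = 0.0563), ISO replicate 1 (-0.44, adjusted p = 0.129) or Lipase Inh. + ISO replicate 2 (-0.60, adjusted p = 0.0584), and that of Arrb1 without ISO replicate 2 (-0.24, adjusted p = 0.0723) or Lipase Inh. + ISO replicate 2 (-0.31, adjusted p = 0.0573).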

How the results depend on the processing

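Of the 72 member values (9 members in 8 contrasts), 72 kept their call with RLE factors and with a filter at 1 CPM, 71 with DESeq2, and 64 with total counts, which lost 4 and gained 4. Total counts moved the median log2 fold change of all genes by -0.31 under ISO, -0.16 under SR-3420 and -0.23 under Lipase Inh. + ISO. TMM factors were 1.0906 to 1.1198 in Vehicle and 0.885 to 0.9015 in ISO. The lowest of all, 0.8807, was that of Lipase Inh. + SR-3420 replicate 2. With total counts, members higher under SR-3420 went from 4 to 2 and lower from 1 to 3 (adding Gnas, -0.30, and Adcy9, -0.23). For ISO against SR-3420, members higher went from 2 to 1, and Adcy6 was added to those lower (-0.32, adjusted p = 0.041). Gna13 under ISO reversed to -0.056. Without the filter on low counts, 1 member was higher under Lipase Inh. + SR-3420 (Adrb3, 0.43, adjusted p = 0.0121). Leaving out 1 sample gave 2 to 4 members higher under SR-3420 (2 without SR-3420 replicate 2 or Vehicle replicate 3), 3 to 4 under Lipase Inh. + ISO, 0 to 1 under Lipase Inh. + SR-3420 (Adrb3, 0.64, adjusted p = 0.0182, without Lipase Inh. + Vehicle replicate 2), 2 to 3 for the ISO interaction and 1 to 2 for ISO against SR-3420. Samples with the same replicate number deviated together only in part (mean correlation 0.1096, and -0.0118 for number 1), so the numbers were not taken as pairs; 14 of 18 samples correlated best outside their group with one of their own number, as a hint from the data. With a replicate block, 69 of the 72 calls stood and 3 were gained, making 2 members higher under ISO (adding Adcy6, 0.19, adjusted p = 0.0499), 1 lower with the inhibitors alone (Adcy5, adjusted p = 0.0239) and 1 higher under Lipase Inh. + SR-3420 (Adrb3, 0.46, adjusted p = 0.00658). The causes were not tested. Across all alternatives the log2 fold change of Adrb3 ranged from -1.91 to -1.40 under ISO and from -3.56 to -3.14 under Lipase Inh. + ISO, that of Adcy3 under ISO from 3.89 to 4.33, and the ISO interaction of Adcy6 from 1.57 to 1.79. With 3 samples a group and few reads on Adrb1, Adcy4 and Adcy7, small differences in these genes were not detectable, and Adcy4 had no value in 6 fits restricted to the compared groups.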
